A study of Mus musculus with 26 samples.

Results

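The regions described here were listed as enriched in E14 mouse embryonic stem cells when H3K27me3 was immunoprecipitated before H3K4me3 (K27-K4), and overlapped by no base any region listed for the reverse order (K4-K27). They numbered 14378 of the 36235 regions of the E14 K27-K4 list, or 39.7%, and held 21.2% of its bases. The deposited list is longer than the peak set the study goes on to describe, so these regions are not that set. The other 21857 regions of the list overlapped a K4-K27 region and are called shared below. All of the shared regions had the same start and end in both lists, and 2683 of the 24540 K4-K27 regions overlapped no K27-K4 region. The regions were thus chosen by the E14 reChIP values behind both lists, and E14 reChIP values in them are given as a description with no test.

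Sequential chromatin immunoprecipitation (reChIP) pulls down chromatin fragments with one antibody, elutes them and pulls them down again with another, with the aim of recovering fragments that carried both marks. Fragments that carry only the first mark can also pass through to the final library. The study set up this workflow for small cell numbers and ran both orders on cells fixed with formaldehyde and digested with MNase. After the first pull-down 10% of the chromatin was set aside as an in-line total H3K4me3 or in-line total H3K27me3 library. The 9 E14 libraries came from non-clonal wild-type cells: 2 each of K4-K27, K27-K4, total H3K4me3 and total H3K27me3, and 1 IgG–IgG reChIP made with non-specific antibody. The 17 libraries of the clones came from wild-type clones 57 and 58 (WT) and from clones 43 and 53 that lack both Dppa2 and Dppa4 (DKO), each a single clone of E14 origin, with 1 library of each ChIP per clone and 1 IgG–IgG library from clone 57. All cells grew in serum and LIF. E14 replicate 1, E14 replicate 2 and the clones were sequenced in batches A, B and C, so that batch and cells cannot be told apart when E14 is set beside the clones, whereas WT and DKO share a batch.

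H3K4me3 is laid down by the SET1 and MLL complexes at the start sites of active and poised genes, and H3K27me3 by Polycomb repressive complex PRC2 at silenced developmental genes. Chromatin that holds both marks is called bivalent and, in embryonic stem cells, lies mostly at CpG-rich promoters of developmental regulators such as the Hox genes. DPPA2 and DPPA4 are a pair of DNA-binding proteins of early embryos and embryonic stem cells that maintain both marks at a subset of bivalent promoters.

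Values are the deposited log2 reads per kilobase of region scaled to library size (log2 RPM per kb), and differences are in log2 units. The libraries rested on 6741245 (E14 K27-K4 replicate 1) to 47903464 (E14 K27-K4 replicate 2) reads, and 0 to 2834 of the 36235 regions held no read in a library. The number of reads therefore limits what can be seen in the narrow regions. In these regions the median was 11 reads in E14 K27-K4 replicate 1 against 115 in replicate 2, and 8 to 53 in the other E14 libraries. A marker check was made at promoters outside the regions: the pluripotency genes Pou5f1 and Sox2 carried total H3K4me3 of 1.47 and 0.78 in E14 replicate 1 with total H3K27me3 of -1.52 and -1.69.

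Sequence of the regions that the later results turn on is shown first, as the mm10 plus strand, lower case with each CG dinucleotide in capitals. The first set gives the highest regions away from promoters by mean K27-K4 value in the clones, at chr8:55389151-55389450 and chr9:104353201-104353500, 16658 and 8331 bp from the start sites of Gm51573 and Gm28548. These 300-base regions held 4 and 6 CG.
Gm51573: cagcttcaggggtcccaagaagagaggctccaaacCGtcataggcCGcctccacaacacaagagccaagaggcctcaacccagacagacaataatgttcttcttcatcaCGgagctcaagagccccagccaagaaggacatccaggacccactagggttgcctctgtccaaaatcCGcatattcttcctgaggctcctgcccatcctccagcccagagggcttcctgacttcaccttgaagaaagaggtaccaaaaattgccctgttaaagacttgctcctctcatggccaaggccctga
Gm28548: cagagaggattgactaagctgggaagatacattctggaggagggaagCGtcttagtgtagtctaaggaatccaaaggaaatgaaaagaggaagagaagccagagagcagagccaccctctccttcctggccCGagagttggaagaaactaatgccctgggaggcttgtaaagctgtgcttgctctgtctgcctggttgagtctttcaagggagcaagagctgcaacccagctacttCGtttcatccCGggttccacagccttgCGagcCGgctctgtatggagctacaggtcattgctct

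The second set gives the windows of the regions where K27-K4 fell furthest in DKO clones, both intergenic: chr9:98726795-98727094, 92487 bp from the start of the non-coding gene E330023G01Rik, and chr2:109635627-109635926, 38200 bp from the start of Bdnf, which encodes a neurotrophin. They held 8 and 20 CG. The Bdnf window contains a stretch of 90 bases that recurs without a mismatch 208 bases further on, so reads from its copies may be placed with low mapping quality. Windows with annotated UTR bases were passed over.
E330023G01Rik: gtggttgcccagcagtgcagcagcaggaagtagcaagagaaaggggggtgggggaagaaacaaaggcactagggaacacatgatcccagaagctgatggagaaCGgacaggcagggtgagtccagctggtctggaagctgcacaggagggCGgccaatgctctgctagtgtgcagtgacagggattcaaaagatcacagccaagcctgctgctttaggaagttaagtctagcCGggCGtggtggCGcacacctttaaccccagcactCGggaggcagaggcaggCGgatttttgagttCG
Bdnf: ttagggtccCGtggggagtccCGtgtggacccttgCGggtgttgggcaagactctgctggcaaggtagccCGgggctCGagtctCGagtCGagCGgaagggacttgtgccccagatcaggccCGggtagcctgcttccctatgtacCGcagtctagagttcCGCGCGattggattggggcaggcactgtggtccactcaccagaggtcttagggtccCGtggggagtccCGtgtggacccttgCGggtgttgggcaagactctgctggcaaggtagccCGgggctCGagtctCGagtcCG

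The third set gives 250 bases upstream of the start sites of Nanog, at chr6:122707239-122707488, and Suz12, at chr11:79992856-79993105, both inside their region and read from RefSeq promoter sequence. They were chosen after their values were seen, as promoters with 3 and 37 CG. Searched for CG on either strand, 99.7% of the regions and 99.98% of the shared regions held a 300-base window with at least 1, and 66.8% and 92.7% one with at least 10. Wider regions offer more windows, and the median widths were 1500 and 3300 bp.
Nanog: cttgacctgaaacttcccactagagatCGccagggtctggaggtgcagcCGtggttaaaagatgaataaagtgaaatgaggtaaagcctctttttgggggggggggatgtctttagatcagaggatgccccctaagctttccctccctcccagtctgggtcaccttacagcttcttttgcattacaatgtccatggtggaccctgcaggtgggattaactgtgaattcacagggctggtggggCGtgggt
Suz12: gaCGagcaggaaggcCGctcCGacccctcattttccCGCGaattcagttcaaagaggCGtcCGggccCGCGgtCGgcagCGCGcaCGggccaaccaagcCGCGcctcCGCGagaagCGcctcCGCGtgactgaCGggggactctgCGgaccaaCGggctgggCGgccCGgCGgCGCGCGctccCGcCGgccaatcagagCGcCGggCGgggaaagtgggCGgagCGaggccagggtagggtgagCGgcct

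The regions were narrow and mostly distant from start sites. Their median width was 1500 bp (interquartile range 900 to 2250 bp, full range 300 to 19500 bp), against 3300 bp for shared regions, and 3.12% of them were over 5 kb, against 27.5%. A RefSeq start site lay within 1.5 kb of 2133 regions, or 14.8%, against 59.4% of shared regions. A further 2414 (16.8%) touched an exon, 4759 (33.1%) lay in introns and 5072 (35.3%) were intergenic. The median distance to a start site was 17882 bp, against 0 bp for shared regions. CpG density was 1.88 per 100 bp at the median, against 2.37 in shared regions, while GC content (50.4% and 50.1%) and the share of bases in repeats (14.7% and 15.4%) were close. In the promoter regions CpG density reached 2.33 per 100 bp.

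**Figure D1:**
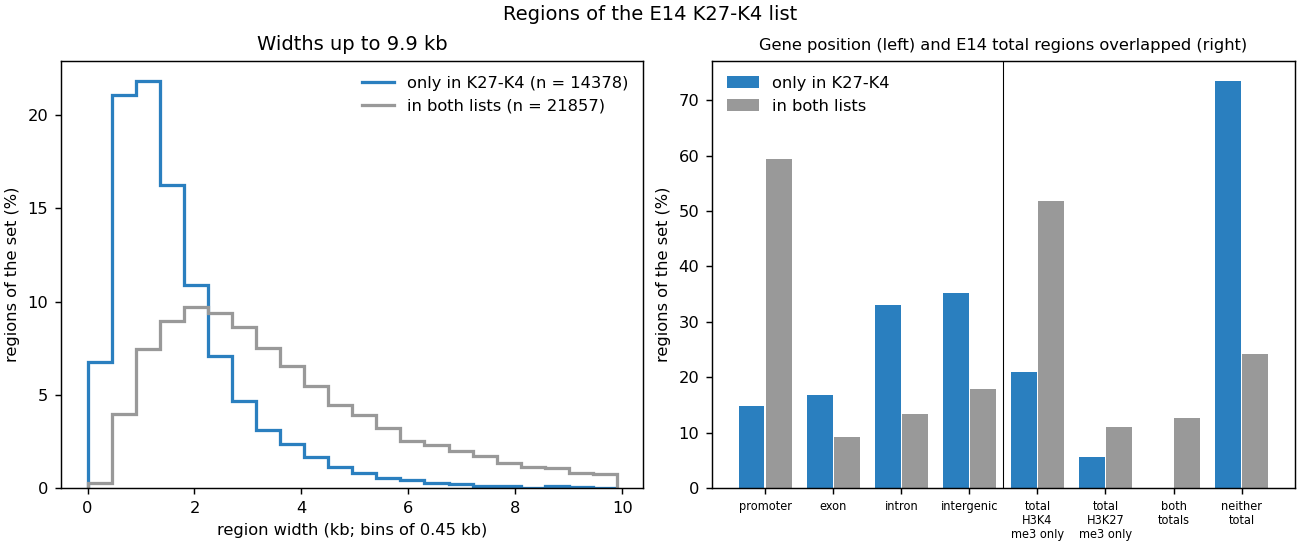
Left, percent of regions found only in K27-K4 (blue) and of shared regions (grey) by width in kb. Right, percent of each set by gene position and by the E14 total regions overlapped; 14.8% of the regions lie at promoters against 59.4% of shared regions, and 73.4% overlap neither total against 24.3%.

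Most of the regions stood well apart from the K4-K27 list. The smallest gap to a K4-K27 region was 301 bp and the median gap 14251 bp, with 1167 regions within 1 kb and 1201 over 100 kb away. The regions within 1 kb had median K4-K27 values of -0.31 and 0.07 in E14 replicates 1 and 2, while the remaining 13211 had -0.58 and 0.13. Shared regions had 0.23 and 1.15.

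Most of the regions lay in no listed region of the E14 in-line totals. Of the 14378 regions, 10548 (73.4%) overlapped no E14 total region, 3010 (20.9%) overlapped total H3K4me3 only, 815 (5.67%) total H3K27me3 only and 5 (0.0348%) both. Among shared regions these shares were 24.3%, 51.9%, 11.1% and 12.7%. At the 2133 promoter regions, 1030 overlapped H3K4me3 only, 1048 neither, 54 H3K27me3 only and 1 both. The H3K4me3-only regions had a median start site distance of 6344 bp and the H3K27me3-only regions one of 19885 bp. In the lists of the clones 31.8% (WT) and 29.1% (DKO) of the regions overlapped total H3K4me3, and 7.38% and 11.7% total H3K27me3.

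The levels of the 2 totals in the same regions were then compared in limma, over E14 libraries the rule had not used (2 of each total). Total H3K4me3 was higher than total H3K27me3 in 4921 regions and lower in 990, at a log2 difference over 1 and an adjusted p under 0.05. Over all 36235 regions 40.2% were higher and 5.43% lower, so that the shares here, 34.2% and 6.89%, were near the background. With each library centred on its median the split turned to 3111 higher and 3661 lower, since centring moved the median difference of all regions from 0.61 to -0.11. Promoter regions stood at 1375 higher and 69 lower of 2133, and the median difference was 2.21 there against 0.46 over all of the regions. Within each sequencing batch the median difference over the regions was 0.47 (batch A) and 0.51 (batch B).

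In the clones, total H3K4me3 was higher than total H3K27me3 in 4560 regions and lower in 1566 (4 libraries of each), beside 39.8% and 8.9% of all regions. Centring gave 3204 and 4879. The promoter regions in an E14 H3K4me3 region carried the H3K4me3 total in the clones as well, with 996 of 1030 higher and 0 lower. Of the 815 regions in an E14 H3K27me3 region, 1 was higher and 483 were lower. The classes taken from the E14 lists had the same direction in the clones.

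The largest differences between the totals in E14 belonged to promoters shared by a pair of genes. The promoter of Copa, a COPI vesicle coat subunit, and Ncstn, the nicastrin subunit of gamma-secretase (chr1:172081501-172083750), had total H3K4me3 of 1.32 and 2.12 and total H3K27me3 of -4.79 and -2.99, a difference of 5.61 (SE 0.70, adjusted p = 6.03e-05). The promoter of Haus3, an augmin subunit, and Poln, a DNA polymerase (chr5:34168951-34170300), differed by 5.32 (SE 0.65), and that of Mrpl32 and Psma2, which encode a mitochondrial ribosomal protein and a proteasome subunit, by 5.13 (SE 0.52). At the other end were narrow regions away from promoters. A region of 450 bp, 11167 bp from Zbtb10 (chr3:9238951-9239400), had total H3K4me3 of -2.62 and -2.73 and total H3K27me3 of 1.23 and 0.97, a difference of -3.78 (SE 0.45, adjusted p = 4.32e-05). Regions near Tenm3, a teneurin, and Pja1, a ubiquitin ligase, differed by -3.36 (SE 0.43) and -3.19 (SE 0.55).

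E14 reChIP signal in the regions was weak and varied between replicates. The median K27-K4 value was 0.18 in replicate 1 and 0.74 in replicate 2, the median K4-K27 value -0.58 and 0.12, and the median IgG–IgG value -0.61. Both K27-K4 replicates exceeded IgG–IgG in 12598 regions (87.6%), but by at least 2 log2 units in only 988 (6.87%), against 30.8% of shared regions. The study states that peaks were called with IgG–IgG as control, so an excess over it is partly built in. The only E14 IgG–IgG library was of replicate 1 and thus of another batch than replicate 2. K27-K4 exceeded K4-K27 in both E14 replicates in 75.4% of the regions and in 76.9% of the shared regions, which are in both lists. These shares only describe the E14 values behind the lists. Shared regions, which are defined by being in both lists, were higher in both orders, with median K27-K4 of 0.86 and 1.89. Across the 14378 regions the E14 replicates correlated at r = 0.28 for K27-K4 and 0.12 for K4-K27, against 0.85 and 0.58 across shared regions. These are correlations across regions, which are not independent and share the libraries' depth.

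**Figure D2:**
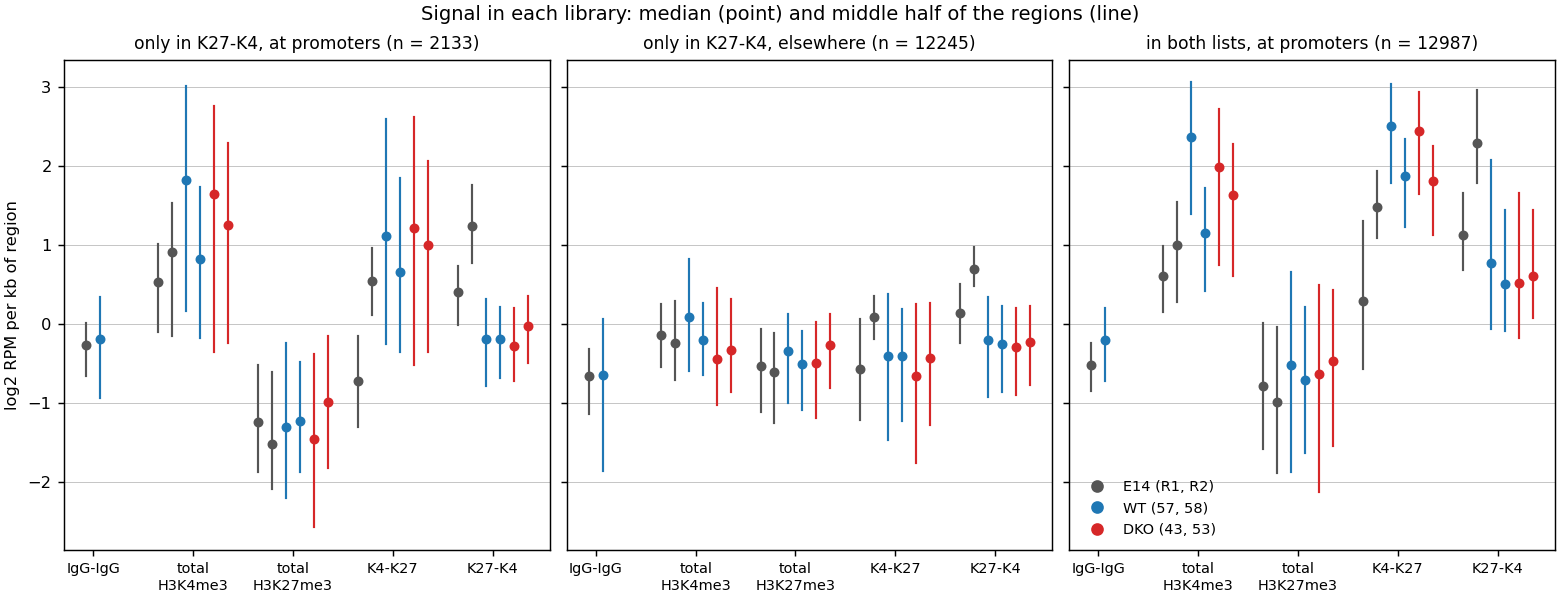
Median (point) and interquartile range (line) of log2 RPM per kb in each library, by ChIP, for the regions at promoters (left), the regions elsewhere (middle) and shared regions at promoters (right), with E14 in grey, WT in blue and DKO in red. At promoters found only in K27-K4 the E14 K27-K4 medians are 0.40 and 1.24, while those of the 4 clones lie between -0.28 and -0.03.

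In the clones, which the rule did not use and which were sequenced in another batch than E14, the median K27-K4 value of the regions lay between -0.29 and -0.20 in the 4 clones and their median K4-K27 value between -0.47 and -0.25, beside an IgG–IgG median of -0.58 in WT clone 57. The K27-K4 list of WT overlapped 13.8% of the regions and that of DKO 12.9%, while the K4-K27 lists of the same clones, the order in which E14 had listed none of them, overlapped 2357 (16.4%) and 2745. For shared regions these shares were 51.5% and 44.4% for K27-K4, and 69.7% and 63.8% for K4-K27. No list of the clones overlapped 47.3% of the regions, against 12.7% of shared regions. At promoters the lists parted: the WT and DKO K27-K4 lists overlapped 14.3% and 15.0% of the 2133 promoter regions, and the K4-K27 lists 52.6% and 55.6%. Shared promoter regions parted in the same direction, at 56.4% and 52.7% for K27-K4 and 92.6% and 88.2% for K4-K27.

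Among the promoters, mean K27-K4 in the clones was highest at F8a. The region at F8a, which encodes a huntingtin-binding protein, had K27-K4 values of 2.26 and 0.90 in WT clones 57 and 58 and of 2.68 and 2.12 in DKO clones 43 and 53, with K4-K27 of 3.31, 2.46, 3.09 and 2.35. The order of the ChIPs differed there by -0.81 (SE 0.36, adjusted p = 0.0989), which did not pass the test. The promoters of Gm3739, 4930447C04Rik, Zfp996 (a zinc finger gene) and 1700030C10Rik followed, with mean K27-K4 of 1.99, 1.81, 1.64 and 1.59 over the 4 clones and likewise no call between the orders. Under 5 of 16 alternatives 1700030C10Rik was called lower in K27-K4, as were Zfp996 under 2 and F8a under 1, with differences of -1.26 to -0.54, -1.07 to -0.51 and -1.31 to -0.32. None of these promoters lay in an E14 total region.

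Away from promoters, the region near Gm51573 had K27-K4 of 2.14, 1.89, 1.51 and 2.22 in clones 57, 58, 43 and 53, against K4-K27 of -1.47, -1.84, -0.08 and 1.36 (difference 2.45, SE 0.47, adjusted p = 0.000714), and was not called in DKO clones alone. The regions nearest Gm28548 and Edn2, the gene of the peptide endothelin 2, were also higher in K27-K4, by 2.70 (SE 0.78, adjusted p = 0.0175) and 1.09 (SE 0.31, adjusted p = 0.00978), but lost the call under 7 and 5 of their alternatives. In an intron 22928 bp from the start of Mga, a MYC-network factor, K27-K4 was 2.50, 1.99, 1.76 and 1.22 and K4-K27 was 2.88, 2.74, 2.57 and 1.88. That region and the one near Macroh2a1, which encodes a histone H2A variant, did not pass the test between the orders.

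The comparison of both orders in the clones, which the rule did not use, divided the regions by place. Over 8 reChIP libraries K27-K4 was higher than K4-K27 in 832 regions and lower in 2096, beside 3.6% and 25.3% of all regions, so that the shares here were 5.79% higher and 14.6% lower. Centring each library gave 2147 higher and 1780 lower and moved the median of all regions from 0.04 to 0.36. Leaving out 1 library changed the higher calls to between 374 and 1245 and the lower calls to between 1910 and 2241. The higher calls fell most without a K27-K4 library, to 374 without WT clone 57, 406 without WT clone 58, 424 without DKO clone 43 and 403 without DKO clone 53. At promoters 80 regions were higher and 1066 lower of 2133, a share of 50.0% lower beside 49.4% of shared promoter regions.

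**Figure D3:**
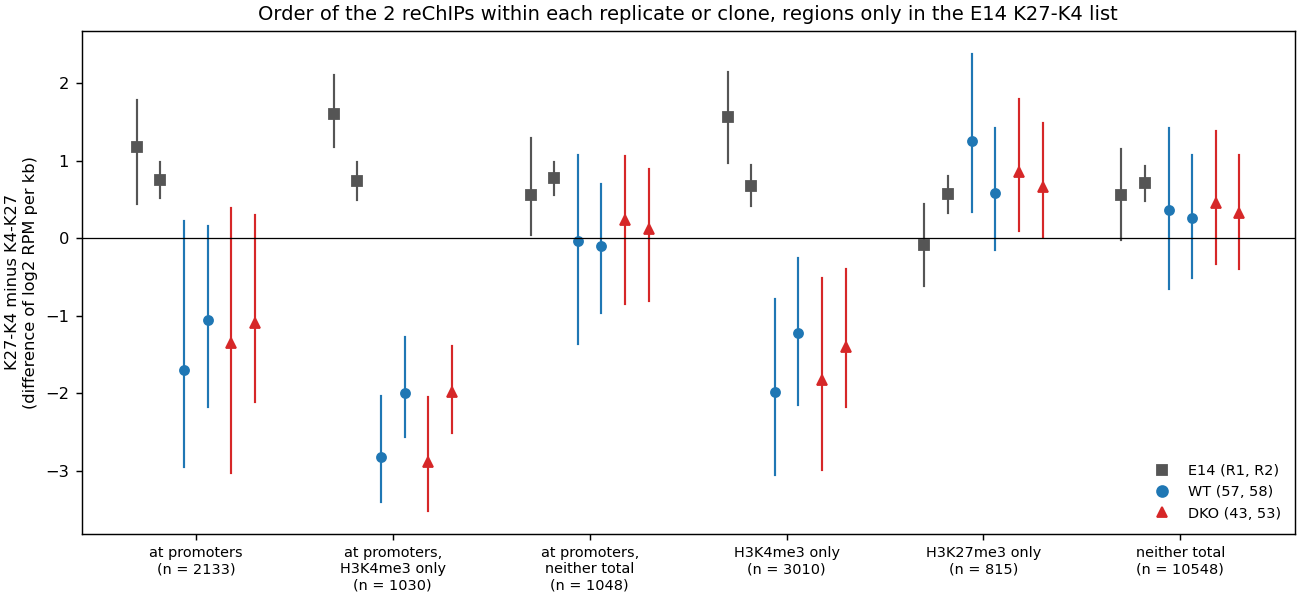
K27-K4 minus K4-K27 (difference of log2 RPM per kb; symbol, median; line, interquartile range) within each E14 replicate (grey), WT clone (blue) and DKO clone (red), for classes of the regions by place and by E14 total. At promoters in an E14 H3K4me3 region only, the medians are 1.60 and 0.74 in E14 and between -2.89 and -1.98 in the clones, and in H3K27me3-only regions all 4 clones lie above 0.

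The in-line totals separated these calls further. Of the 1030 promoter regions in an E14 H3K4me3 region only, 877 (85.1%) were lower in K27-K4 than in K4-K27 in the clones and 1 was higher. Their median K27-K4 minus K4-K27 was 1.60 and 0.74 in E14 replicates 1 and 2, -2.82 and -2.00 in WT clones 57 and 58 and -2.89 and -1.98 in DKO clones 43 and 53. Of the 815 regions in an E14 H3K27me3 region only, 134 were higher and 1 was lower, with median differences of 1.25, 0.59, 0.85 and 0.67 in the same order of clones. The 10548 regions in neither total lay between, with 688 higher and 442 lower.

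K27-K4 was also set against total H3K27me3, the chromatin that enters its second ChIP. In the clones K27-K4 was higher in 1458 regions (10.1%) and lower in 103, beside 32.9% and 0.353% of all regions, and with centring in 739 and 620. The lower calls were 57 without WT total H3K27me3 clone 57, 194 without WT K27-K4 clone 57 and 198 without WT K27-K4 clone 58. At the promoter regions 936 of 2133 were higher and 7 lower, and among those in an E14 H3K4me3 region 746 of 1030 were higher. In the 815 regions of the E14 H3K27me3 class, 0 were higher and 13 lower by the same limma test.

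Single promoters with the largest differences between the orders had deep K4-K27 signal and almost no K27-K4 signal in the clones. The region at C920006O11Rik and Rn7sk, the gene of the 7SK RNA that holds the elongation factor P-TEFb inactive (chr9:78175501-78176700), had K4-K27 of 2.85 and 1.67 in WT and 3.23 and 2.70 in DKO, against K27-K4 of -4.25, -4.36, -1.81 and -0.55 (difference -5.35, SE 0.50, adjusted p = 3.89e-07). In E14, K27-K4 was 2.57 and 1.60 there, and K4-K27 4.03 and 1.26. Chd8, a chromodomain helicase (chr14:52256251-52258650), differed by -4.54 (SE 0.68), Tcf4, a basic helix-loop-helix factor, by -4.48 (SE 0.62) and Haus3 with Poln by -4.11 (SE 0.42). The largest differences the other way were in weak regions, mostly away from promoters. A region in an intron 41754 bp from the start of Stum (chr1:180440251-180441750) had K27-K4 of 0.98, 0.08, 0.39 and 0.07 in clones 57, 58, 43 and 53 and K4-K27 of -3.79, -1.42, -3.98 and -2.70 (difference 3.36, SE 0.75, adjusted p = 0.00159). Regions near Cxadr, the coxsackievirus and adenovirus receptor, and Gm12784, and at the promoter of 1700123J17Rik and Sbk1, a kinase gene, differed by 3.25, 3.07 and 2.85, and these lost the call in WT clones alone.

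Genes with a promoter in the regions numbered 2360 of 26180, or 9.01%, and 33.8% of genes had a promoter in no K27-K4 region. The gene lists were written with earlier results known, so the counts describe and do not test. Histone genes, matched through their older Hist synonyms and named here by current symbols, most of which supply histones in S phase, had 33 of 69 promoters in the regions (47.8%), among them the pseudogene H2af-ps2 and the testis linker histone gene H1f6. Cytosolic ribosomal protein genes had 25 of 86 (29.1%), pluripotency genes 6 of 30, Polycomb and Trithorax genes 9 of 51 (17.6%), numbered zinc finger genes 64 of 395 (16.2%) and germline genes 7 of 46 (15.2%). No Hox gene of 39 and no Wnt ligand of 19 had one, and all of their promoters lay in shared regions. Olfactory receptor genes had 6 of 1110, and 97.7% of them lay in no region of either kind.

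The remaining lists ranged around the share of all genes. Mitochondrial ribosomal protein genes had 10 of 78, keratin genes 15 of 109, DNA repair and replication genes 7 of 53, aminoacyl tRNA synthetase genes 4 of 37, splicing factor genes 5 of 47, Sox genes 2 of 19, Pax, Gata and T-box genes 3 of 31 and oxidative phosphorylation genes 9 of 96. Proteasome genes had 2 of 39, potassium channel genes 4 of 80 and forkhead genes 2 of 44. In the clones K27-K4 was called lower than K4-K27 at 23 of the 25 ribosomal protein regions and 10 of 10 mitochondrial ribosomal regions. The same call was made at 9 of 9 oxidative phosphorylation, 6 of 6 pluripotency and 9 of 9 Polycomb and Trithorax regions. Of these regions 20, 7, 7, 6 and 9 lay in an E14 H3K4me3 region, in the same order. The call was made at 25.3% of all regions and 50.0% of the 2133 promoter regions. It was made at 85.1% of the promoter regions in an E14 H3K4me3 region only. None of the 15 keratin, 7 germline, 6 olfactory receptor, 3 Pax, Gata and T-box and 2 forkhead regions was called lower. The median difference of the germline regions was -0.26. Of the 7 germline regions 5 lay in an E14 H3K4me3 region. These 15 keratin regions lay in no E14 H3K4me3 region.

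The 33 histone genes were covered by 21 regions, 12 of them in an E14 H3K4me3 region and none in an E14 H3K27me3 region. Their median width was 1950 bp. K27-K4 was called lower than K4-K27 in the clones in 18 of the 21, with a median difference of -3.10 over the 21. The regions at H1f6 (-0.16), H2af-ps2 (1.04) and H2ac4 with H3c2 (-2.31) did not pass the test. At H4c14, a histone H4 gene (chr3:96261751-96264900), E14 K27-K4 was 0.76 and 1.42 and E14 K4-K27 -1.80 and 0.67. In the clones K4-K27 was 2.26, 1.43, 2.55 and 2.40 and K27-K4 -1.0, -0.54, -1.88 and -1.36 (clones 57, 58, 43 and 53), so that the orders did not overlap. Histone genes are near-identical copies of each other, and how reads were split among them is uncertain.

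The 6 pluripotency promoters in the regions were those of Nanog and Sall4, transcription factors of the core network, Klf2, a Krüppel-like factor of naive cells, Utf1, a chromatin-associated factor, Fbxo15, an F-box gene active in stem cells, and Dppa2. At Nanog (chr6:122704951-122710950) total H3K4me3 was 1.06 and 1.58 and total H3K27me3 -1.62 and -1.82 in E14 replicates 1 and 2. The E14 K27-K4 values were 0.62 and 1.49, and those of K4-K27 -1.73 and 0.60. In the clones K4-K27 was 2.11, 1.09, 2.28 and 2.01 and K27-K4 -0.53, -0.25, -0.94 and -0.07 (clones 57, 58, 43 and 53). The lowest K4-K27 clone thus lay above the highest K27-K4 clone, with a difference of -2.32 (SE 0.32, adjusted p = 9.86e-06). The same comparison gave -3.54 at Dppa2, -2.84 at Fbxo15 (a promoter shared with Timm21), -2.76 at Utf1, -2.25 at Sall4 and -1.92 at Klf2. All 6 passed, and their E14 totals differed by 2.61 to 3.51 in favour of H3K4me3.

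The Dppa2 region (chr16:48310651-48311550) lay 377 bp from the start of a gene deleted in the DKO clones. Its total H3K4me3 was 3.07 and 1.85 in WT clones and 3.28 and 2.45 in DKO clones; the region does not check the deletion.

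The 9 Polycomb and Trithorax promoters included PRC2 genes that write H3K27me3 (the core subunit Suz12, the catalytic subunit Ezh1, the histone chaperone Rbbp4 and the accessory subunits Jarid2 and Mtf2), the PRC1 gene Rybp the H3K4 methyltransferase genes Setd1a and Setd1b, and Rbbp5, which encodes a core subunit of the SET1 and MLL complexes. At Suz12 (chr11:79992151-79994550) total H3K4me3 was 1.40 and 2.00 and total H3K27me3 -1.56 and -2.80 in E14. E14 K27-K4 was 1.34 and 2.42 there, and K4-K27 -0.26 and 1.51. In the clones K4-K27 was 3.77, 2.92, 3.57 and 2.72 and K27-K4 -0.04, -0.27, -0.45 and 0.19. The orders did not overlap, with a difference of -3.39 (SE 0.30, adjusted p = 3.44e-07). Jarid2 (-3.17), Setd1a (-3.09), Mtf2 (-2.89), Rbbp4 (-2.85), Rybp (-2.69), Ezh1 (-2.60), Setd1b (-2.18) and Rbbp5 (-1.87) had the same direction. The region at Rbbp5, 450 bp wide and 1114 bp from the start, passed narrowly (adjusted p = 0.0469) and lost the call under 9 of 14 alternatives, with differences from -3.23 to -0.51. Mtf2 lost its call in DKO clones alone, with differences from -4.51 to -1.27 over its alternatives and a highest adjusted p of 0.282 by limma.

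**Figure D4:**
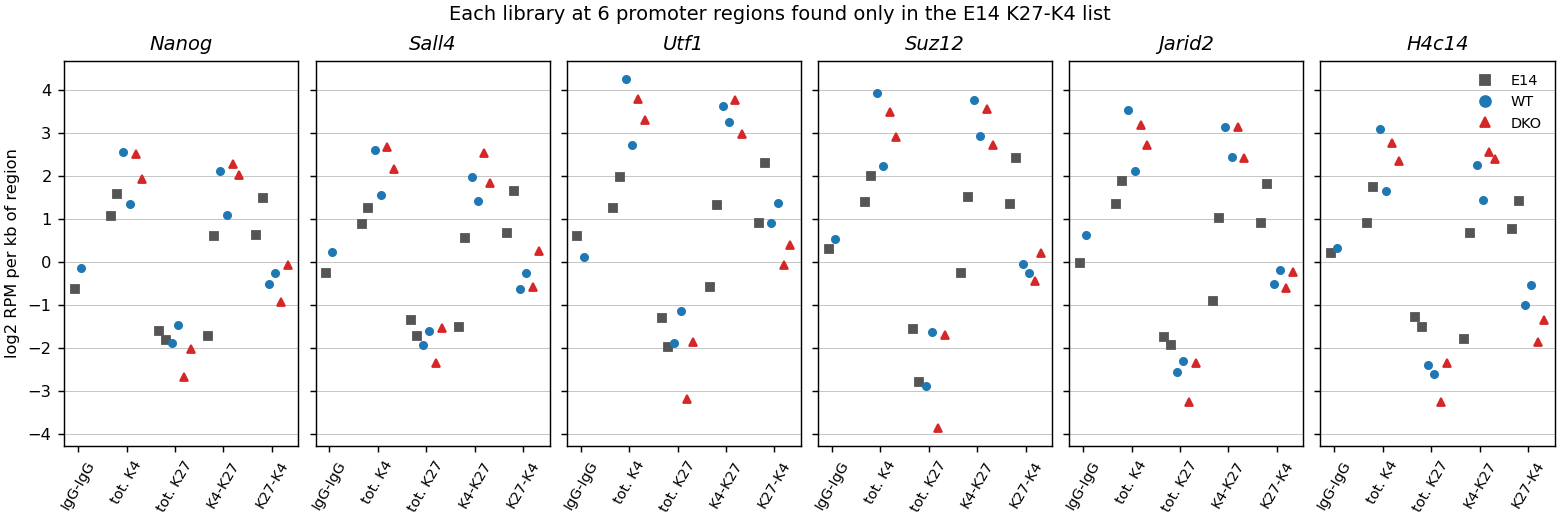
Log2 RPM per kb in every library at the promoter regions of Nanog, Sall4, Utf1, Suz12, Jarid2 and H4c14, by ChIP (horizontal axis; tot. K4 and tot. K27 are the in-line totals), with E14 as squares, WT as circles and DKO as triangles. At Nanog the 4 clones lie at 1.09 to 2.28 in K4-K27 and at -0.94 to -0.07 in K27-K4.

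The widest regions were a 19500 bp region that touches an exon, 11769 bp from the start of Hk3, a hexokinase gene, a 19200 bp region at Setd1b and a 17400 bp region at Epha2, an ephrin receptor gene. Hk3 lay in no E14 total region, and its K27-K4 (0.20, 0.35, -0.51 and 0.23) and K4-K27 (-0.34, -0.30, -0.61 and -0.45) values in clones 57, 58, 43 and 53 differed by 0.49 (SE 0.37, adjusted p = 0.342). Epha2 carried K4-K27 of 1.91, 1.51, 2.51 and 1.83 and K27-K4 of 0.05, 0.24, -0.01 and 0.60, a difference of -1.72 (SE 0.28, adjusted p = 6.61e-05).

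Loss of DPPA2 and DPPA4 was then examined within each ChIP, 2 DKO against 2 WT clones. Few of the regions changed. K27-K4 rose in 201 and fell in 404 of the 14378 regions, or 1.40% and 2.81%, beside 0.905% and 5.25% of all regions, and the median difference was 0.04. With centring the counts were 161 and 195, and without the variance trend and robust estimation 7 and 24. Without WT clone 57 they were 524 and 337, without WT clone 58 684 and 669, without DKO clone 43 26 and 205, and without DKO clone 53 21 and 228. In shared regions 127 rose and 1498 fell.

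**Figure D5:**
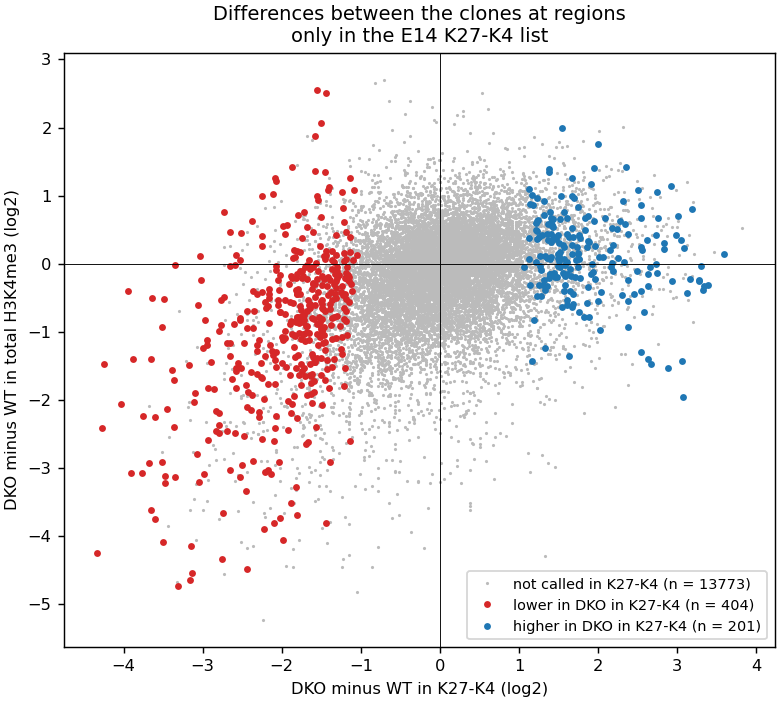
DKO minus WT difference (log2) in K27-K4 (horizontal axis) and in total H3K4me3 (vertical axis) for each of the regions, with the 404 called lower (red) and the 201 called higher (blue) in K27-K4 and all others in grey. Of the 404 lower regions, 123 were also called lower in total H3K4me3.

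Of the 404 falls in K27-K4, 34 (8.42%) lay at promoters, against 14.8% of all of the regions. The median distance to a start site was 47602 bp and 90.6% overlapped neither E14 total, against 73.4%. Their CpG density was 2.33 per 100 bp at the median, against 1.88 over all of the regions, and their median width was 900 bp. Total H3K4me3 fell in 123 of the 404 as well (30.4% of the K27-K4 falls and 15.4% of the 801 H3K4me3 falls), K4-K27 in 34 (8.42% of the K27-K4 falls) and total H3K27me3 in 19 (4.70%). Over all 36235 regions these fell in 5.69%, 2.45% and 1.34%. The 201 rises had a median start site distance of 17384 bp, and 13 of them (6.47%) also rose in total H3K27me3, beside 0.392% of all regions.

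The largest falls rested on few reads in DKO clones. Near E330023G01Rik (chr9:98726551-98727600) K27-K4 was -0.89 and 0.59 in WT clones, from 9 and 27 reads, and -4.62 and -4.17 in DKO clones, from 1 read each. The fitted difference was -4.24 (SE 1.39, adjusted p = 0.0439). The ratio of WT to DKO reads at equal depth was 22.1, with an exact interval for counting error of 5.70 to 190 at 95% confidence. Near Bdnf (chr2:109635601-109636500) the values were 1.17 and 0.38 in WT and -4.39 and -1.95 in DKO, from 32 and 20 against 1 and 4 reads (difference -3.94, SE 0.89, adjusted p = 0.000659). Its ratio was 12.8 (5.14 to 41.0). In both regions every WT clone lay above every DKO clone.

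An intronic region 145568 bp from the start of Slc39a10, a zinc transporter gene (chr1:46707751-46708050), had K27-K4 of 1.07 and 0.97 in WT and -2.81 and -2.36 in DKO, from 10 and 10 against 1 and 1 reads. It differed by -3.60 (SE 0.67, adjusted p = 1.78e-05) with a ratio of 12.3 (2.99 to 109) and kept its call under all 8 alternatives. A region 178249 bp from the start of Atp10a, a lipid flippase gene, differed by -3.49 (SE 0.84). The differences ranged over the alternatives from -4.98 to -3.50 near E330023G01Rik, from -5.17 to -2.72 near Bdnf and from -5.21 to -1.77 near Atp10a. The calls were lost near Bdnf (adjusted p from 5.45e-05 to 0.081 over its alternatives) and Atp10a without WT clone 57 or without the variance trend, near Atp10a also with centring, and near E330023G01Rik with centring or without WT clone 58, DKO clone 43 or DKO clone 53.

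The largest rises in K27-K4 were also at weak sites. Near Lrig3, a leucine-rich repeat gene (chr10:125837401-125838000, in an E14 H3K27me3 region), K27-K4 was -3.25 and -1.77 in WT and 0.95 and 1.22 in DKO, from 1 and 3 against 27 and 24 reads (difference 3.60, SE 0.65, adjusted p = 6.54e-06). The ratio of DKO to WT reads was 10.4 (3.81 to 39.5). Regions 22447 bp from Fzd7, a Wnt receptor gene, 153989 bp from 4930413E15Rik and 181244 bp from Vti1a, a SNARE gene, rose by 3.38, 3.18 and 3.12. All 4 rises lost their call when either DKO clone was left out, and those near Lrig3, Fzd7 and 4930413E15Rik also without the variance trend and robust estimation, while Fzd7 lost it with centring too. Over the alternatives the differences ranged from 3.07 to 3.23 near Vti1a, 2.86 to 4.34 near Lrig3, 2.54 to 4.23 near Fzd7 and 1.97 to 4.40 near 4930413E15Rik.

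K4-K27 rose in 210 of the regions and fell in 171, beside 0.767% and 2.45% of all regions, and with centring in 383 and 137. Without the variance trend and robust estimation limma called 0, with an unadjusted p under 0.05 in 817 higher and 1155 lower. Without WT clone 57 the counts were 242 and 30, without WT clone 58 217 and 104, without DKO clone 43 13 and 102, and without DKO clone 53 31 and 180. Of the 171 falls, 86 also fell in total H3K4me3 (50.3%), beside 5.69% of all regions. Of the 210 rises, 54.3% lay in an E14 H3K4me3 region only. The largest falls were near Bach2, a lymphoid transcription factor gene, Marchf11, a ubiquitin ligase gene, C430002N11Rik and Vmn1r191, a vomeronasal receptor gene, at -4.24, -4.04, -4.03 and -4.01. Near Bach2 the DKO clones held 1 and 2 reads against 20 and 26 in WT. The largest rises were near 1700099I09Rik, Mul1, Nucks1 and Fads6, at 3.60, 3.58, 3.50 and 3.49. Each fall lost its call without either WT clone, each rise without either DKO clone, and all 8 without the variance trend and robust estimation. C430002N11Rik also lost it with centring and without DKO clone 43, and Fads6 without WT clone 58. The differences kept their sign, with narrow ranges near Marchf11 (-4.18 to -3.86) and Nucks1 (3.31 to 3.68) and the widest near Fads6 (1.59 to 5.39).

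Total H3K4me3 fell in 801 regions (5.57%) and rose in 42, beside 5.69% and 0.135% of all regions, so that the share of falls was near the background. Centring turned the split to 585 lower and 707 higher and moved the median of all regions from -0.06 to 0.24, and without the variance trend and robust estimation 530 fell and 30 rose. Without WT clone 57 the counts were 575 higher and 392 lower, without WT clone 58 295 and 1897, without DKO clone 43 0 and 150, and without DKO clone 53 1 and 240. The 801 falls had a median width of 750 bp, a median start site distance of 51624 bp and 29.9% of bases in repeats, and 45 were at promoters. At the largest fall, 474717 bp from the start of Kcnv1, a potassium channel subunit gene (chr15:45589651-45590400), total H3K4me3 was 1.5 and 0.44 in WT and -4.35 and -4.18 in DKO, from 40 and 17 against 1 and 1 reads (difference -5.24, SE 0.80, adjusted p = 1.6e-08, ratio 41.1, 10.9 to 348). Regions near Brinp1 and Pou5f2, a POU factor gene, fell by 4.83 and 4.57, and a region 223735 bp from Fbxo15 fell by 4.65. The regions near Kcnv1, Fbxo15 and Pou5f2 kept their calls under all 8 alternatives, and that near Brinp1 lost it without WT clone 57. The largest rises, near 4930598N05Rik, Lpar3, Snx10 and Barhl2, were of 2.69, 2.56, 2.51 and 2.39 and were lost without either DKO clone. That near Snx10 was also lost without WT clone 57, and its difference ranged from 1.42 to 3.60 over the alternatives.

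Total H3K27me3 rose in 87 regions and fell in 97, beside 0.392% and 1.34% of all regions, and with centring in 133 and 161. Without WT clone 57 the counts were 273 and 52, without WT clone 58 115 and 120, without DKO clone 43 12 and 24, and without DKO clone 53 45 and 176. The largest fall was near Bdnf, with 0.59 and 0.51 in WT and -4.04 and -0.84 in DKO (difference -2.99, SE 0.47, adjusted p = 1.95e-06), from 25 and 20 against 1 and 17 reads, and lost its call with centring, without the variance trend and without DKO clone 43. Falls near the contactin-associated protein genes Cntnap5b and Cntnap2 and near Astn2 were of 2.75, 2.51 and 2.49, and the difference near Cntnap2 ranged from -3.74 to -1.27 over the alternatives and lost the call in 4 of 9. Rises near Sobp, Lif, the gene of leukaemia inhibitory factor, Sltm and Mpp6 were of 2.69, 2.38, 2.23 and 2.22. Without the variance trend and robust estimation limma called 0 regions, with an unadjusted p under 0.05 in 615 higher and 539 lower. The call was also lost near Astn2, Sobp and Sltm without DKO clone 43, near Mpp6 with centring, near Cntnap2 with centring, without WT clone 57 or without DKO clone 53, and near Lif, which ranged from 1.09 to 3.66, without WT clone 58.

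Whether the DKO difference depended on the order of the ChIPs was tested as an interaction over the 8 reChIP libraries. In limma 0 regions passed higher and 0 lower, beside 0% of all regions, while 486 and 425 of the regions had an unadjusted p under 0.05, beside 765 and 635 of all 36235 regions. Without WT K4-K27 clone 58, 2 were higher and 29 lower, and at most 1 passed without any other library. A p that misses the threshold does not show that the orders responded alike.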

How the data were processed

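ChIP-seq was measured in 26 libraries of mouse embryonic stem cells. Per the labels and the study's methods, reads were trimmed (Trim Galore 0.6.6), aligned to mm10/GRCm38.p6 with BWA 0.7.13 and handled with SAMtools 1.9 and Picard 2.6.0. The authors deposited, for each of 12 region lists, log2 RPM per kb made in SeqMonk from reads of mapping quality over 20, extended by 200 bp, with duplicates kept and no IgG subtraction. Low values were whole reads in every library (within 0.05), and 0 reads had been entered as 0.9. All regions lie on 150 bp steps, which is not the bin in the stated calling settings, so the settings behind the lists are not known. The columns of other libraries, 32 in all, were not used.

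Regions were intersected with each other and with RefSeq start sites (31647 sites, GRCm38.p6). limma 3.58.1 (R 4.3.3; lmFit, eBayes with trend and robust) was run over all 36235 regions with Benjamini-Hochberg adjustment; no count test was run. A call needed a log2 difference over 1 and adjusted p under 0.05. With 2 libraries per group, precision is limited by clone number and, in narrow regions, by reads. Intervals cover counting error only. The files give depth only through the step of 1 read. Tests were tried on simulated data. Alternatives were centring, the variance model, filters, stricter region sets, a replicate block and leaving out each library.

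Members and gene lists were chosen with earlier results of these data known. Named regions are those with the highest K27-K4 in the clones (5 at promoters, 5 elsewhere), up to 4 of the largest called changes each way per DKO test and between the orders, the 3 largest and 3 smallest differences of the E14 totals, the 3 widest, promoters of genes with qPCR primers, and pluripotency and Polycomb and Trithorax promoters; regions with a library of 0 reads in the ranking comparison were passed over. The histone example and the printed Nanog and Suz12 promoters were chosen after their values were seen, and the sequence of Gm3739 was left out for want of a window free of UTR. The sequence of 1 promoter region and the values of 1 marker gene are not reported here. WT, DKO and E14 libraries of the same clone or replicate come from the same cells, which is the basis of the replicate block. Correlations of their deviations were -0.142 to 0.218.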

Additional observations from a re-analysis of the deposited data

Results flagged for a closer look

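The order of the ChIPs pointed in opposite directions in E14 and in the clones at promoters. This difference was not tested, because E14 replicates and clones were sequenced in different batches and cannot be told apart from them. The E14 direction was also not independent of the rule, since E14 reChIP values chose the regions. The shared regions come from the same E14 K27-K4 list. At promoter regions found only in K27-K4, the median of K27-K4 minus K4-K27 was 1.18 and 0.75 in E14 replicates 1 and 2, against -1.69 and -1.05 in WT clones 57 and 58 and -1.36 and -1.10 in DKO clones 43 and 53. In regions that overlap E14 total H3K4me3 only, the medians were 1.56 and 0.68 in E14, -1.99 and -1.22 in WT and -1.82 and -1.40 in DKO. The shared promoter regions, which both E14 lists hold, moved in the same way, with 0.76 and 0.89 in E14, -1.16 and -0.94 in WT and -1.12 and -0.65 in DKO. With each library centred on its median, promoter regions found only in K27-K4 kept these signs, at 0.49 and 0.14 in E14 and at -1.27, -0.77, -1.0 and -0.90 in clones 57, 58, 43 and 53.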

How the results depend on the processing

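For single named values with a call, no sign changed, but the majority of calls turned for several comparisons. Centring turned total H3K4me3 against total H3K27me3 from 4921 higher and 990 lower to 3111 and 3661 in E14 and from 4560 and 1566 to 3204 and 4879 in the clones, K27-K4 against K4-K27 from 832 and 2096 to 2147 and 1780, and DKO total H3K4me3 from 42 and 801 to 707 and 585. Without WT clone 57, DKO total H3K4me3 had 575 and 392, and DKO K27-K4 went from 201 and 404 to 524 and 337. DKO K27-K4 had 684 and 669 without WT clone 58. DKO total H3K27me3 went from 87 and 97 to 273 and 52 without WT clone 57, and DKO K4-K27 from 210 and 171 to 13 and 102 without DKO clone 43, 31 and 180 without DKO clone 53 and 20 and 25 in the stricter regions. DKO against WT was the least stable family: of the regions called either way, K27-K4 gave 605, or 356 with centring, 31 without variance trend and robust estimation, 86 in the subset whose E14 K27-K4 exceeded IgG–IgG by 2 or more in both replicates (the stricter regions) and 231 to 1353 with 1 library left out; K4-K27 gave 381, or 0, 45 and 115 to 321 (centring kept it within 1.5 times); total H3K4me3 gave 843, or 1292, 560, 123 and 150 to 2192, and 361 without the regions of lowest mean value; total H3K27me3 gave 184, or 294, 0, 36 and 36 to 325. Between the orders in the clones, 2928 calls became 136 in the stricter regions, and the interaction gave 0 to 31 with 1 library left out. Total H3K4me3 against total H3K27me3 gave 5911 calls in E14, or 3615 without the regions of lowest mean value and 329 in the stricter regions, and 6126 in the clones, or 378. K27-K4 against total H3K27me3 gave 1561, or 490 and 78. These stricter regions are fewer by construction, and the other causes were not tested.

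Keeping in both lists only regions that exceeded IgG–IgG by as much gave 4042 K27-K4 regions that overlapped no K4-K27 region, against 14378. The 4042 are not a part of the 14378, of which only 988 passed. The others had been shared regions, whose K4-K27 region did not pass. The promoter share of 14.8% became 24.6% with 5 kb either side, 13.2% from 1 kb upstream to 100 bp downstream, and 8.40% in the stricter regions, and the share in neither total, 73.4%, became 76.7% when more of the region had to be covered and 71.8% in the stricter regions. The paired fit with a replicate block called 676 higher and 2038 lower between the orders and changed no count by over 1.5 times. For single named regions, 925 values kept their side of the threshold, 102 lost their call and 8 gained one. A fit without 1 of 4 clones assumes that the lone sample varies like the others. Regions of few reads limit what depth can show.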
